A study of Mus musculus with 24 samples.

Results

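MHC class I molecules display peptides from the inside of a cell to CD8+ T cells. Proteins are cut by the proteasome, whose inducible form carries the catalytic subunits Psmb8, Psmb9 and Psmb10. The peptides are pumped into the endoplasmic reticulum by the Tap1-Tap2 transporter and loaded with the help of tapasin (Tapbp) onto a heavy chain, H2-K1 or H2-D1, paired with the light chain B2m. Nlrc5 is the coactivator that switches on class I genes, and interferon raises the whole set in most cell types. The 10 genes named here were taken by symbol from the 4 comparison tables of a study of MOF, the histone H4 acetyltransferase encoded by Kat8. All 10 are among the 43626 genes of each fibroblast table, and 5 and 9 of them are listed in the podocyte tables, which hold 1990 and 9578 genes.

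The study used mouse embryonic fibroblasts (MEFs, passage 2), wild type or Mof knockout, and differentiated MPC5 podocytes (passage 20) carrying a scramble control or a Mof knockdown. Each was given vehicle (DMSO) or Adriamycin, an anthracycline that damages DNA, for 24 h at 0.1 µg/ml in MEFs and 0.25 µg/ml in podocytes. This gives 8 groups of 3 samples, 24 in all, and whether the 3 are separate cultures is not stated, so p-values rest on the spread among these samples alone, and that spread may be technical. The sources used here do not give how the knockout and the knockdown were made. MPC5 is a single podocyte clone, conditionally immortalised with a viral T antigen driven by the promoter of a class I heavy chain gene. That promoter responds to interferon gamma. The growth notes name no interferon. In whole cultures, a change in the mix of cells and a change in RNA per cell cannot be told apart.

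The tables give, for each gene, a mean normalized count over the 6 samples of a comparison, a log2 fold change with its standard error (SE), and an adjusted p that the authors obtained with DESeq2. Single samples have no values in them, library depth is therefore unknown, and the level in each group was worked out from the mean count and the fold change. Fold changes are Mof-depleted over control, a direction read from Kat8, which was at -1.96 and -1.71 in MEFs and -1.49 and -1.24 in podocytes (vehicle and Adriamycin) in the authors' deposited table. A gene was called changed at an adjusted p below 0.05. The podocyte tables list called genes only, and 13876 genes were tested there under vehicle and 17184 under the drug. Collagen genes mark the MEFs as fibroblasts, with a mean normalized count of Col1a2 of 87394 under vehicle in the authors' deposited table. Of the podocyte markers, Synpo and Podxl are listed in both podocyte tables and Nphs1 in neither, so the level of Nphs1 there is unknown.

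Promoter sequences of the heavy and light chain genes are shown because these genes were all called higher in knockout MEFs. Whether promoter elements had a part in those rises was not tested. RefSeq promoter windows (GRCm38.p6, 250 bases before to 50 after a gene's start) were found for 8 of the 10 genes, in 9 windows; Tap2 and Nlrc5 had none. Capitals mark every match to the core of an interferon response element (GAAA, any 2 bases, GAAA), TTCNNNGAA (the STAT site GAS), CCAAT (the box read by NF-Y), GAANNGAAA (a shortened interferon core), an NF-kappa-B site (the first 11 capitals of the H2-K1 and H2-D1 windows of 30 bases) or TGACG (the core read by CREB and ATF factors), searched on both strands. The last 3 motifs were added after the sequences had been seen, and the shortened core can overlap the full one. The B2m and H2-K1 stretches end just before the first annotated base of the gene.
B2m, chr2:122147437-122147685, plus strand: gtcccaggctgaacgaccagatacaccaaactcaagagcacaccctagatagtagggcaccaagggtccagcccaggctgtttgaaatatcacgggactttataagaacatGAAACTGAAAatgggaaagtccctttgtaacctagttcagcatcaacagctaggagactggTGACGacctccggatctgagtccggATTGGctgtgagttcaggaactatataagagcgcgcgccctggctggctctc
H2-K1, chr17:34000348-34000597, minus strand: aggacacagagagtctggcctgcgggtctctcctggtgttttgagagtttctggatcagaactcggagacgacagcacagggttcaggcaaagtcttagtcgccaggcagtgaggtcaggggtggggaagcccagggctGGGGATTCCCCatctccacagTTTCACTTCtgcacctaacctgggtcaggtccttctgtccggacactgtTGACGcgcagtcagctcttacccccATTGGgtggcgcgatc

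Windows of 30 bases show how alike the heavy chain promoters are at the NF-kappa-B and interferon matches, and where TGACG lies before Tap1.
H2-K1, chr17:34000429-34000458, minus strand: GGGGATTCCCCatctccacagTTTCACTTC
H2-D1, chr17:35262923-35262952, plus strand: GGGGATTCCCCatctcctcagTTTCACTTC
Tap1, chr17:34187465-34187494, plus strand: acaggTGACGacagagggtcctgccctcaa
The H2-K1 and H2-D1 stretches share 29 of 30 bases, and their whole promoter windows share 88.3% of 239 aligned bases. The GENCODE M21 model of H2-D1 begins further upstream, so its stretch falls inside the annotated gene. The NF-kappa-B letters occur in 10 of 32851 windows (0.0304%), which belong to 9 genes, and 3 of these genes are the class I heavy chain genes H2-K1, H2-D1 and H2-Q6. These letters were chosen after the sequences had been seen, so that share does not test whether they are enriched at class I genes. The interferon core was found before B2m alone of the 8 genes and in 3.44% of all windows, and its shortened form before H2-K1 and H2-D1 and in 7.52% of all windows. The GAS letters were found before Psmb8 alone and in 8.3% of all windows. TGACG lies in the windows of H2-K1, H2-D1, B2m, Tap1 and Psmb9 and in 20.8% of all windows, and CCAAT in those genes and Tapbp and in 37.4% of all windows. A match describes letters and does not show binding.

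Under vehicle, class I presentation genes were higher in Mof knockout than in wild-type MEFs: 9 of the 10 rose, by 1.60-fold to 7.27-fold, and none fell. Higher calls made up 17.8% of the 15605 genes tested in that table. Calls in either direction made up 37.5% of them and lower calls 19.6%. The median log2 fold change of the 10 was 1.37, beside 0.01 over all tested genes. The coactivator Nlrc5 had the largest value of the 10, and the proteasome subunit Psmb10 the smallest and only uncalled one.

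Nlrc5 stood at a mean count of 27.1 in wild-type and 197 in knockout MEFs under vehicle, as worked out from the authors' deposited table. Its log2 fold change there was 2.86 ± 0.28 (SE, 7.27-fold), with an adjusted p of 4.29e-22 from DESeq2 in the authors' deposited table. The knockout level of this coactivator thus lay far above the wild-type level, though both are low for the length of the gene (3.19 and 23.2 counts per kb of exon).

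Among the genes of peptide display, B2m had the highest level per kb and the most precise fold change. B2m went from 3980 normalized counts in wild-type to 9640 in knockout MEFs, and its log2 fold change in the authors' deposited table was 1.28 ± 0.12 (SE). The heavy chain gene H2-K1 went from 373 to 787, with 1.08 ± 0.41 and an adjusted p (DESeq2) of 0.0247 in the authors' deposited table. H2-D1, the other classical heavy chain, went from 854 to 1799, with 1.07 ± 0.33 and an adjusted p (DESeq2) of 0.00399 in the authors' deposited table. The heavy chains therefore moved by about as much as B2m, with far larger errors. Of the 2610 genes with a mean count within 1.5-fold of that of H2-K1, 99.1% had a smaller SE, and for H2-D1 the share was 98.7%. Which samples carry that spread cannot be read from the tables.

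For peptide transport and loading, the transporter gene Tap1 rose from 204 to 876 normalized counts, a log2 fold change of 2.10 ± 0.15 (SE) in the authors' deposited table. Its partner Tap2 rose from 101 to 161, with 0.68 ± 0.25 and an adjusted p (DESeq2) of 0.0202 in the authors' deposited table. Tapbp, which holds the empty heavy chain at the transporter, rose from 647 to 1778, with 1.46 ± 0.13 in the authors' deposited table. The proteins of the Tap genes work as a pair, and their 95% intervals under vehicle, 1.81 to 2.39 for Tap1 and 0.19 to 1.16 for Tap2, do not overlap.

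For peptide cutting, Psmb8 rose from 23.3 to 88.6 normalized counts, with a log2 fold change of 1.93 ± 0.39 (SE) in the authors' deposited table. Psmb9 rose from 5.76 to 27.1, with 2.24 ± 0.54, and is the member with the fewest reads in the authors' deposited table. Psmb10 was at 187 and 222, with 0.25 ± 0.16 and an adjusted p (DESeq2) of 0.238 in the authors' deposited table. The subunits thus differ in both level and change: Psmb10 was the most abundant of the 3 in wild-type MEFs and was not called.

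**Figure D1:**
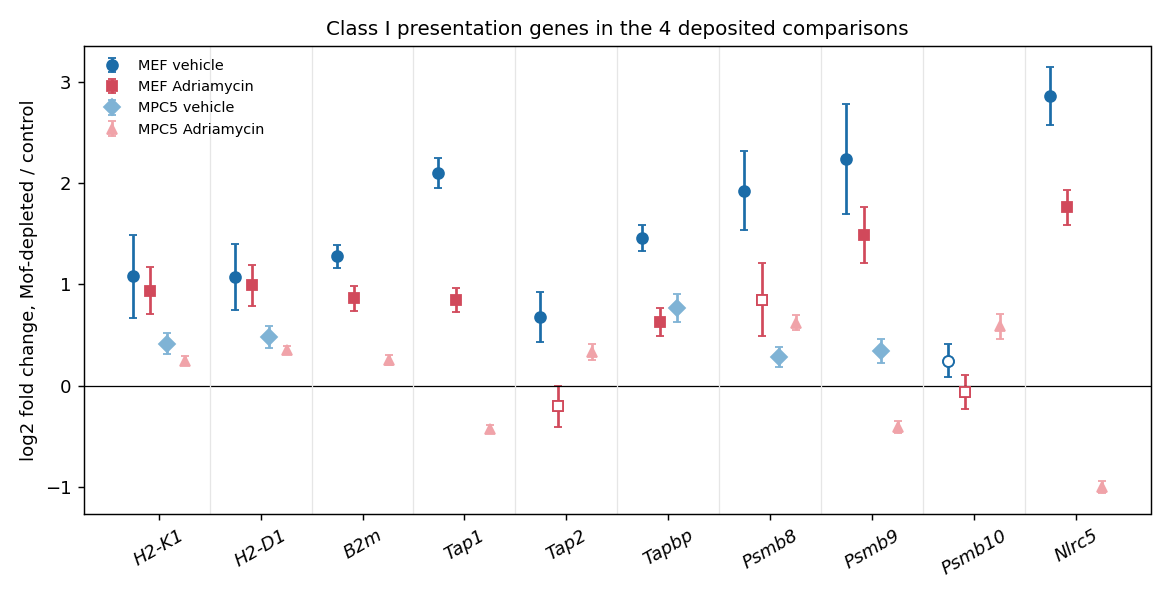
Log2 fold change (Mof-depleted over control) of the 10 class I presentation genes in the 4 comparisons, with bars of 1 SE as deposited by the authors; filled points passed an adjusted p below 0.05 and open points did not. The MEF vehicle values lie between 0.25 and 2.86, and in podocytes given Adriamycin Tap1, Psmb9 and Nlrc5 lie below 0.

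With Adriamycin, knockout MEFs again had higher class I presentation genes than wild-type MEFs, with 7 of the 10 called higher and none lower. Higher calls made up 16.6% of the 14139 genes tested, lower calls 16.1% and both together 32.7%. The median log2 fold change of the 10 was 0.85, beside -0.02 over all tested genes. The genes not called were Tap2, Psmb8 and Psmb10.

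Nlrc5 went from 210 normalized counts in wild-type to 713 in knockout MEFs given the drug, with a log2 fold change of 1.76 ± 0.18 (SE) in the authors' deposited table. B2m went from 7389 to 13430, with 0.86 ± 0.12 in the authors' deposited table. Coactivator and light chain were thus both called, as they were under vehicle. H2-K1 was at 831 and 1593 with 0.94 ± 0.23, and H2-D1 at 1535 and 3047 with 0.99 ± 0.20, in the authors' deposited table. Both heavy chains again had larger errors than most genes of like count, with 98.4% and 97% of such genes below them.

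The loading genes parted under the drug. Tap1 went from 1582 to 2836 normalized counts, with 0.84 ± 0.12 (SE), and Tapbp from 1956 to 3029, with 0.63 ± 0.14, in the authors' deposited table. Tap2 was at 286 in wild-type and 248 in knockout MEFs, with a log2 fold change of -0.20 ± 0.20 and an adjusted p (DESeq2) of 0.468 in the authors' deposited table. Of the subunits, Psmb9 went from 40.3 to 113, with 1.49 ± 0.28 in the authors' deposited table. Psmb8 missed the threshold narrowly, at 36.4 and 65.5 with 0.85 ± 0.36 and an adjusted p (DESeq2) of 0.0567 in the authors' deposited table. Psmb10 was at 212 and 203, with -0.06 ± 0.17 in the authors' deposited table.

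**Figure D2:**
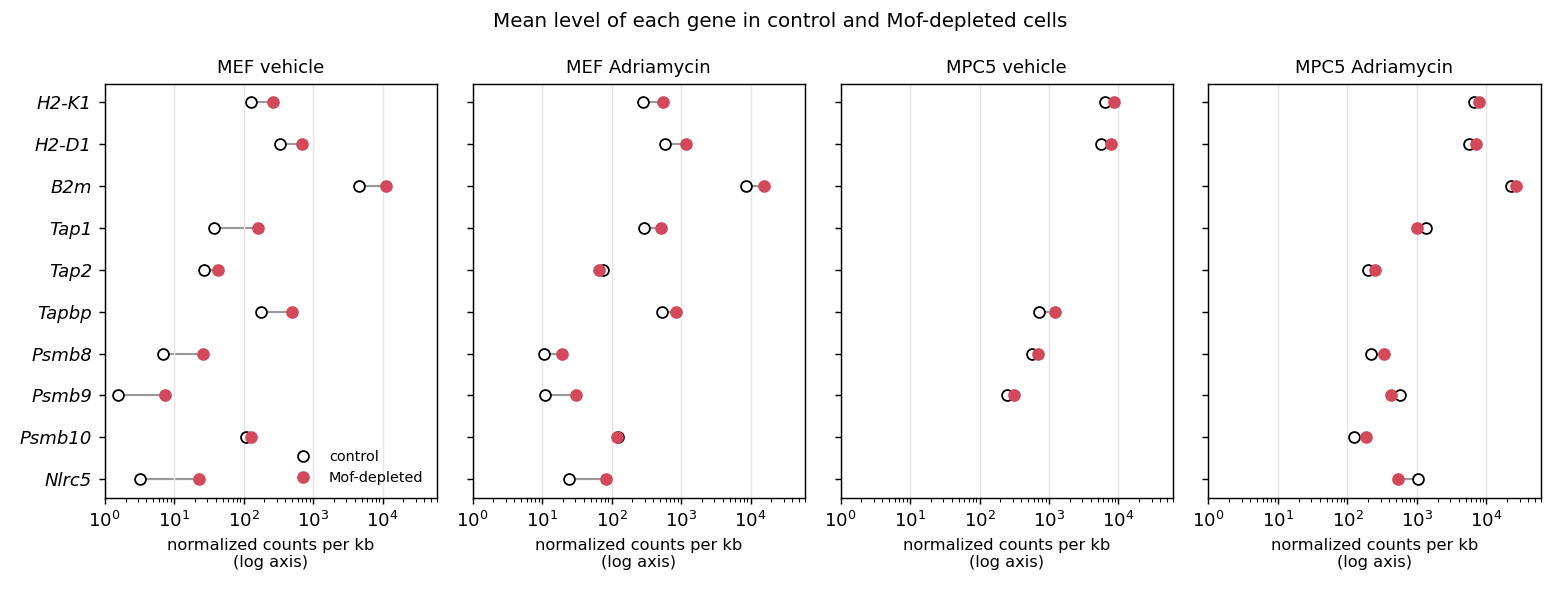
Level of each gene in control (open) and Mof-depleted (filled) cells, in normalized counts per kb of exon on a log axis, worked out from the deposited mean count and fold change; members not listed in a podocyte table have no point. Each panel was normalized on its own. B2m is highest in each panel that holds it, and Psmb9 in wild-type MEFs under vehicle is lowest at 1.57.

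Per kb of exon, the order in wild-type MEFs under vehicle ran from B2m (4628 normalized counts per kb) through H2-D1 (331), Tapbp (178), H2-K1 (127), Psmb10 (110), Tap1 (37.3), Tap2 (26.7), Psmb8 (6.89) and Nlrc5 (3.19) to Psmb9 (1.57). No spread of these levels can be had from the tables, so neighbours in that order are not shown to differ. In scramble podocytes given Adriamycin the order was B2m (22687), H2-K1 (6672), H2-D1 (5540), Tap1 (1331), Nlrc5 (1052), Psmb9 (563), Psmb8 (218), Tap2 (198) and Psmb10 (124). In that order Nlrc5 and Psmb9 stand above Psmb10, and in wild-type MEFs below it. The tables were normalized separately, so these levels were set side by side and not tested.

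In MPC5 podocytes under vehicle, 5 of the 10 genes are listed, each higher after Mof knockdown, where higher calls made up 8.7% of tested genes, lower calls 5.64% and both together 14.3%. All 5 changes were below 2-fold. Tapbp had the largest, from 2571 normalized counts with the scramble to 4374 with the knockdown, a log2 fold change of 0.77 ± 0.14 (SE) in the authors' deposited table. H2-D1 went from 14682 to 20447, with 0.48 ± 0.11, and H2-K1 from 18906 to 25198, with 0.41 ± 0.10, in the authors' deposited table. The heavy chains had errors like those of other listed genes of their level here: 43.5% of genes of like count had a smaller SE than H2-K1. Psmb9 was at 908 and 1151 with 0.34 ± 0.11, and Psmb8 at 1924 and 2342 with 0.28 ± 0.10, in the authors' deposited table. The other 5 members, B2m, Tap1, Tap2, Psmb10 and Nlrc5, are not in that table, so their values under vehicle are unknown.

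Podocytes given Adriamycin showed both directions, with 6 members higher and 3 lower after Mof knockdown. Called genes made up 55.7% of all tested genes in this comparison, 27.8% higher and 27.9% lower, so a member's call says less here than in the other tables. The genes that fell were Nlrc5, Tap1 and Psmb9. The genes that rose were both heavy chains, B2m, Tap2, Psmb8 and Psmb10, and Tapbp is not listed.

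Nlrc5 fell from 8936 normalized counts with the scramble to 4472 with the knockdown, a log2 fold change of -0.999 ± 0.06 (SE) and an adjusted p (DESeq2) of 2.35e-66 in the authors' deposited table. Tap1 fell from 7289 to 5425, with -0.43 ± 0.04 in the authors' deposited table. Psmb9, which starts beside Tap1 on the opposite strand, fell from 2062 to 1550, with -0.41 ± 0.06 in the authors' deposited table. These had the 3 largest fold changes of the 10 in MEFs under vehicle.

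The display genes rose by small amounts in the same cells. H2-D1 went from 14289 to 18256 normalized counts with 0.35 ± 0.04 (SE), H2-K1 from 19601 to 23283 with 0.25 ± 0.04, and B2m from 19511 to 23230 with 0.25 ± 0.05, in the authors' deposited table. Tap2 went from 750 to 944, with 0.33 ± 0.08, in the authors' deposited table, so the transporter's subunits moved in opposite directions. Psmb8 went from 736 to 1133 with 0.62 ± 0.07, and Psmb10 from 212 to 318 with 0.59 ± 0.12, in the authors' deposited table. The inducible proteasome subunits thus also split, Psmb9 lower and the other two higher.

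To ask whether the drug altered the effect of MOF loss, the vehicle fold change was subtracted from the Adriamycin one on the log2 scale and tested by a z test on the deposited SEs, Benjamini-Hochberg adjusted over all 22627 genes of both MEF tables. In MEFs, 3 of the 10 genes differed, each towards a smaller rise with the drug, where 1.75% of all genes were called in that direction, 1.67% in the other and 3.41% in all. The difference was -1.26 ± 0.19 (SE) for Tap1 (adjusted p 1.98e-08), -0.83 ± 0.19 for Tapbp (0.00112) and -1.10 ± 0.33 for Nlrc5 (0.0337). All 10 differences were below 0, and the other 7 did not pass. For the heavy chains the intervals were wide, from -1.06 to 0.78 for H2-K1 and from -0.84 to 0.67 for H2-D1, so both intervals spanned 0. Tap2 was at -0.88 ± 0.32 (adjusted p 0.113), Psmb8 at -1.08 ± 0.53 (0.352), B2m at -0.41 ± 0.17 (0.182), Psmb9 at -0.75 ± 0.61 (0.786) and Psmb10 at -0.31 ± 0.23 (0.740).

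In podocytes the same test could be made for the 4 members listed in both tables, among 1518 genes already called in both, of which 63.4% differed, 31.5% higher with the drug and 31.9% lower. Psmb9 differed by -0.75 ± 0.13 (SE, adjusted p 1.97e-08), from a rise with vehicle to a fall with the drug. Psmb8 differed by 0.34 ± 0.12 (adjusted p 0.00869), a larger rise with the drug. H2-K1 differed by -0.17 ± 0.11 (adjusted p 0.179) and H2-D1 by -0.12 ± 0.11 (0.353), neither past the threshold.

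The cell types were compared in the same way, though they differ also in how Mof was depleted and in drug dose. Under vehicle, 3 of 5 members had smaller changes in podocytes than in MEFs: the difference was -1.89 ± 0.55 (SE) for Psmb9, -1.64 ± 0.40 for Psmb8 and -0.69 ± 0.19 for Tapbp. Genes called lower in podocytes made up 23.9% of the 1983 genes compared, genes called higher 30.9% and both together 54.8%. With Adriamycin, 8 of 9 members differed, beside 77.3% of the 9565 genes compared (38.9% higher and 38.4% lower in podocytes), a share not far from that of the members. Nlrc5 differed most, by -2.76 ± 0.18, between a 3.39-fold rise in MEFs and a fall in podocytes. Psmb9 (-1.90 ± 0.28), Tap1 (-1.27 ± 0.13), H2-K1 (-0.69 ± 0.24), H2-D1 (-0.64 ± 0.21) and B2m (-0.61 ± 0.13) were also lower in podocytes. Tap2 (0.54 ± 0.22) and Psmb10 (0.65 ± 0.21) were higher there, and Psmb8 did not pass (-0.22 ± 0.37).

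**Figure D3:**
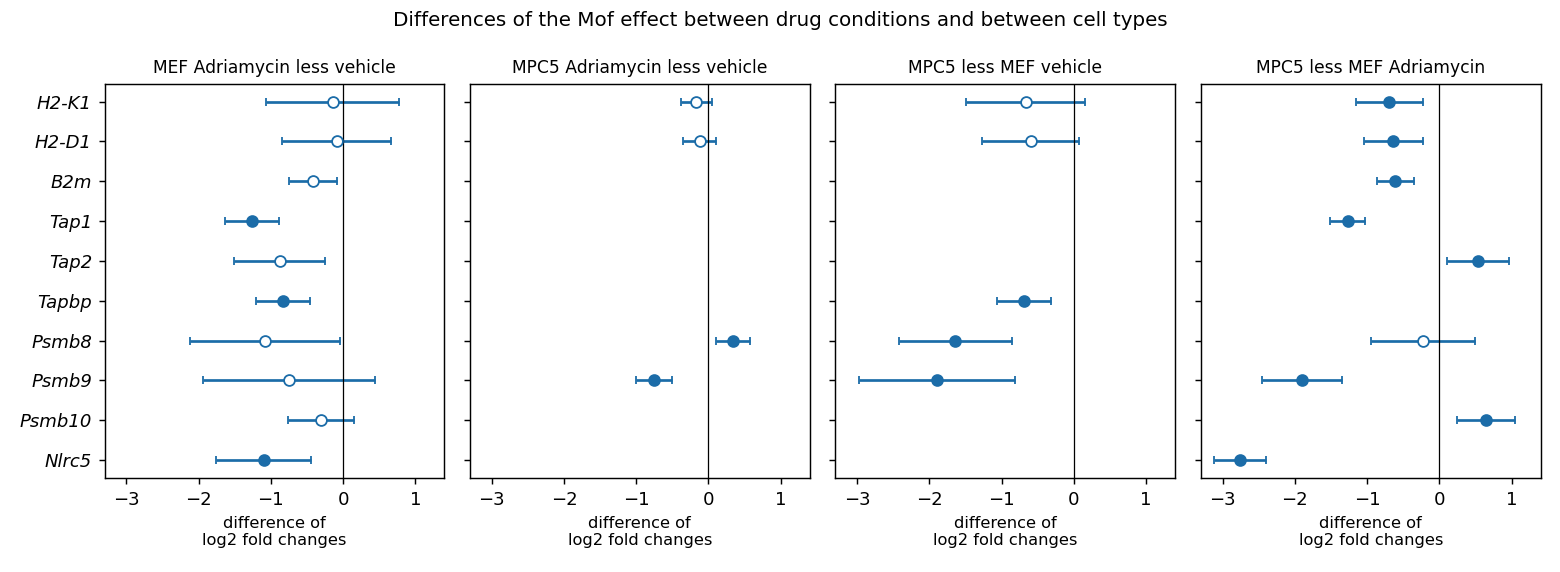
Difference of the Mof effect (log2 fold changes) for each member between drug conditions and between cell types, with 95% intervals; filled points passed an adjusted p below 0.05. In MEFs all 10 differences lie left of 0, and Nlrc5 lies furthest left, at -2.76, in the podocyte against MEF comparison with Adriamycin.

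The inducible subunits replace constitutive ones in the proteasome: Psmb8 takes the place of Psmb5, Psmb9 of Psmb6 and Psmb10 of Psmb7. None of the 3 constitutive partners was called in MEFs. Under vehicle Psmb5 was at a log2 fold change of 0.10 ± 0.08 (SE), Psmb6 at -0.16 ± 0.08 and Psmb7 at -0.15 ± 0.07 in the authors' deposited table. With Adriamycin they were at 0.12 ± 0.08, -0.12 ± 0.08 and 0.00 ± 0.07 in the authors' deposited table. Of the constitutive core subunits and their assembly chaperone Pomp, 4 of 15 rose under vehicle in MEFs and 5 of 15 with Adriamycin, with none lower, led by Psma7 (0.33 ± 0.07 and 0.51 ± 0.09 in the authors' deposited table). Higher calls made up 17.8% and 16.6% of all tested genes in those comparisons, and lower calls 19.6% and 16.1%. In podocytes given Adriamycin, 9 of the 15 fell and none rose, among them Psmb3 (-0.64 ± 0.07) and Pomp (-0.61 ± 0.07) in the authors' deposited table, while Psmb8 and Psmb10 rose. Lower calls made up 27.9% of all genes tested there and higher calls 27.8%. Under vehicle Psmb7 (-0.26 ± 0.09) and Psmb3 (-0.29 ± 0.09) fell in podocytes, in the authors' deposited table.

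**Figure D4:**
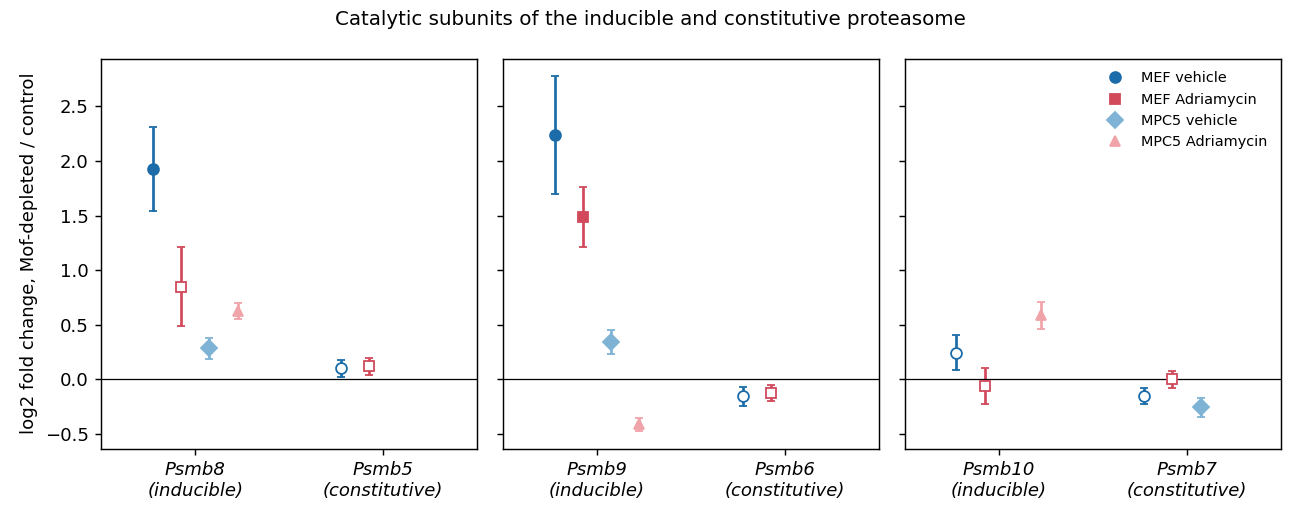
Log2 fold change of each inducible catalytic subunit beside the constitutive subunit it replaces, with bars of 1 SE as deposited by the authors; filled points were called. Psmb5 and Psmb6 are not listed in the podocyte tables and Psmb7 is listed with vehicle only, so their MEF values between -0.16 and 0.12 stand beside up to 2.24 for Psmb9.

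The proteasome activator PA28 feeds peptides to the same particle. Its interferon-responsive subunit gene Psme2 rose in MEFs under vehicle by 0.50 ± 0.12 (SE) and was at 0.20 ± 0.11 (adjusted p 0.169, DESeq2) with Adriamycin in the authors' deposited table. Psme1, its partner, was at -0.13 ± 0.11 under vehicle and fell by 0.31 ± 0.12 on the log2 scale with the drug in the authors' deposited table. In podocytes Psme2 rose under vehicle (0.34 ± 0.12) and fell with Adriamycin (-0.60 ± 0.07) in the authors' deposited table, the same turn as Psmb9. Reads of Psme2 can be shared with its near copy Psme2b.

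Chaperones of class I loading, taken with other genes of the endoplasmic reticulum, showed both directions in MEFs under vehicle. Of 11 such genes tested, 2 rose and 3 fell under vehicle, with a median of -0.08, and 1 rose with Adriamycin. Higher and lower calls made up 17.8% and 19.6% of all tested genes under vehicle, and 16.6% and 16.1% with Adriamycin. Calreticulin (Calr) fell under vehicle (-0.38 ± 0.08) and the thiol oxidoreductase Pdia3 was at -0.08 ± 0.07 in the authors' deposited table. Erap1, the peptidase that trims peptides in the endoplasmic reticulum, rose by 0.35 ± 0.15 in MEFs and by 0.34 ± 0.10 in podocytes under vehicle in the authors' deposited table. In podocytes given Adriamycin Erap1 rose by 1.23 ± 0.11 and the tapasin-related gene Tapbpl by 0.83 ± 0.12, while Calr (-0.28 ± 0.04) and Pdia3 (-0.36 ± 0.04) fell, in the authors' deposited table.

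Other class I heavy chain genes were partly called. In MEFs 4 of 13 tested rose and 1 fell under vehicle, and 3 of 10 rose and 1 fell with Adriamycin. Among all tested genes 17.8% rose and 19.6% fell under vehicle, and 16.6% rose and 16.1% fell with Adriamycin. H2-T23, which encodes the Qa-1 molecule, rose by 1.33 ± 0.31 (SE) and H2-T22 by 0.77 ± 0.17 under vehicle in the authors' deposited table. With Adriamycin H2-Q6 rose by 2.76 ± 0.39 and H2-Q7 by 2.36 ± 0.31 in MEFs, at mean counts of 28.9 and 53.8, in the authors' deposited table. In podocytes 4 of these genes are listed as higher under vehicle, and with Adriamycin 8 as higher and 2 as lower. Among all genes tested in podocytes 8.7% were higher and 5.64% lower under vehicle, and 27.8% higher and 27.9% lower with Adriamycin. H2-Q4 had the smallest adjusted p in both podocyte tables, at 0.64 ± 0.12 and 0.997 ± 0.06 in the authors' deposited table. Class I genes are near copies of each other: 9.63% of the 50-base words of H2-K1 transcripts and 12.8% of those of H2-D1 also occur in another annotated gene, so reads could be split among them. Among the other members the share was 23.2% for Tapbp, 11.9% for Psmb8, 11.6% for Tap2, 4.19% for Psmb9, 3.33% for Tap1 and 0.338% for Nlrc5, largely with overlapping or antisense genes, and 0 for B2m and Psmb10.

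Factors known to act upstream of class I genes were mixed in MEFs, with 6 of 23 higher and 4 lower under vehicle. Of all genes tested in that comparison, 17.8% were higher and 19.6% lower. Stat2 and Irf9, which carry the type I interferon signal to DNA, rose there by 2.22 ± 0.17 (SE) and 1.98 ± 0.16 in the authors' deposited table. With Adriamycin the rises of Stat2 (1.06 ± 0.16) and Irf9 (0.81 ± 0.13) were called too in the authors' deposited table. Irf1, which binds class I promoters, was not called in MEFs (0.25 ± 0.13 and 0.15 ± 0.15 in the authors' deposited table). Rfx5, part of the complex through which Nlrc5 reaches DNA, rose under vehicle (0.58 ± 0.15) and was at -0.29 ± 0.12 with Adriamycin (adjusted p 0.0514, DESeq2) in the authors' deposited table. The other subunits of that complex fell under vehicle, Rfxank (-0.87 ± 0.20) and Rfxap (-0.58 ± 0.18), in the authors' deposited table. With Adriamycin Rfxank fell (-0.74 ± 0.17) and Rfxap was at -0.17 ± 0.18 (adjusted p 0.498, DESeq2) in the authors' deposited table. Ezh2, a methyltransferase known to silence class I genes, fell under vehicle (-0.63 ± 0.09) in the authors' deposited table. With Adriamycin Ezh2 was not called, at -0.18 ± 0.13 (adjusted p 0.307, DESeq2), in the authors' deposited table.

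Podocytes given Adriamycin had 9 of these upstream factors higher and 9 lower, where 27.8% of all tested genes were higher and 27.9% lower. The interferon gamma receptor chain Ifngr2 fell by 1.32 ± 0.06 (SE) on the log2 scale in the authors' deposited table. Stat2 (0.58 ± 0.09) and Irf9 (0.28 ± 0.11) rose there, in the authors' deposited table. In the same cells Rfx5 (1.15 ± 0.11), Nfyc (1.24 ± 0.09), Nfya (0.78 ± 0.06), Irf1 (0.50 ± 0.06) and Ezh2 (0.42 ± 0.05) rose in the authors' deposited table. Partner subunits of Rfx5 and of Nfya and Nfyc fell there, Rfxap (-0.60 ± 0.11) and Nfyb (-0.25 ± 0.05), in the authors' deposited table. Under vehicle Ifngr2 fell as well (-0.66 ± 0.13) and Irf1 rose (0.40 ± 0.11) in the authors' deposited table. No interferon gene had an adjusted p in either MEF table: of 14 found there, 13 were listed at 0 under vehicle and 8 with Adriamycin, and Ifnb1 had a mean count of 0 and 0.17 in the authors' deposited table.

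Class II presentation is restricted mainly to professional antigen-presenting cells, and its genes stood at unequal levels in MEFs. The class II activator Ciita had a mean count of 0.33 under vehicle, the invariant chain Cd74 of 3.46, H2-DMa of 56.6 and Ctss of 189.8 in the authors' deposited table. H2-DMa, a peptide exchange subunit, rose by 0.93 ± 0.28 (SE) under vehicle and 0.74 ± 0.21 with Adriamycin, and the protease gene Ctss by 1.29 ± 0.29 under vehicle, in the authors' deposited table. In podocytes given Adriamycin the listed class II genes H2-DMa (-1.28 ± 0.15), H2-DMb1 (-0.74 ± 0.12) and Cd74 (-0.81 ± 0.19) fell in the authors' deposited table.

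Some markers of leukocytes were also higher in knockout than in wild-type MEFs under vehicle. Higher calls made up 17.8% of all genes tested there. Of 14 leukocyte markers tested, 8 rose and none fell. They included the macrophage genes Emr1 (1.21 ± 0.25) and C1qa (1.01 ± 0.27) in the authors' deposited table. The myeloid genes Csf1r (-0.12 ± 0.25), Itgam (0.04 ± 0.27) and Cd14 (0.09 ± 0.31) were not called in the authors' deposited table. The levels of the list summed to 2708 normalized counts in wild-type and 5144 in knockout MEFs, worked out from the authors' deposited table. Without Lyz2, the most abundant gene of the list, the sums were 1591 and 2413. Cd3e, Cd8a, Ms4a1 and Ncr1, markers of T, B and NK cells, were at 0, and the pan-leukocyte gene Ptprc was at 0.36 ± 0.30 with an adjusted p (DESeq2) of 0.381 in the authors' deposited table. With Adriamycin none of 12 tested markers was called (DESeq2 as run by the authors), and the sums were 4982 and 6658 (3010 and 3382 without Lyz2), while 7 class I presentation genes were higher. Calls in either direction made up 32.7% of all genes tested in that comparison. In podocytes the macrophage receptor gene Csf1r was the only marker of this list in the vehicle table, higher by 1.15 ± 0.21, and with Adriamycin it was higher by 2.65 ± 0.18 beside 3 lower markers, in the authors' deposited table. The part of these markers in the class I values was not tested.

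Of the 10 genes, 7 lie on chromosome 17 (GRCm38) and all are protein coding. H2-K1 (33996017 to 34000347) and H2-D1 (35262730 to 35267499) bound the stretch that holds Psmb9 (34181987 to 34187764), Tap1 (34187553 to 34197225), Psmb8 (34197721 to 34201454) and Tap2 (34203527 to 34216321). Tapbp (33915899 to 33929292) lies just outside it, B2m is on chromosome 2 (122147686 to 122153083), and Nlrc5 (94434356 to 94527272) and Psmb10 (105935735 to 105938444) are on chromosome 8. All 6 members inside the stretch rose under vehicle in MEFs, beside 12 of 57 other tested genes (21.1%) with 5 lower, and the median of these others was 0.16. With Adriamycin 4 of 6 members and 13 of 50 other genes (26%) rose. Widened by 1 Mb on each side, the share of other genes that rose was 20.7% and 22.6%, so the members stood among neighbours of which most were not called.

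**Figure D5:**
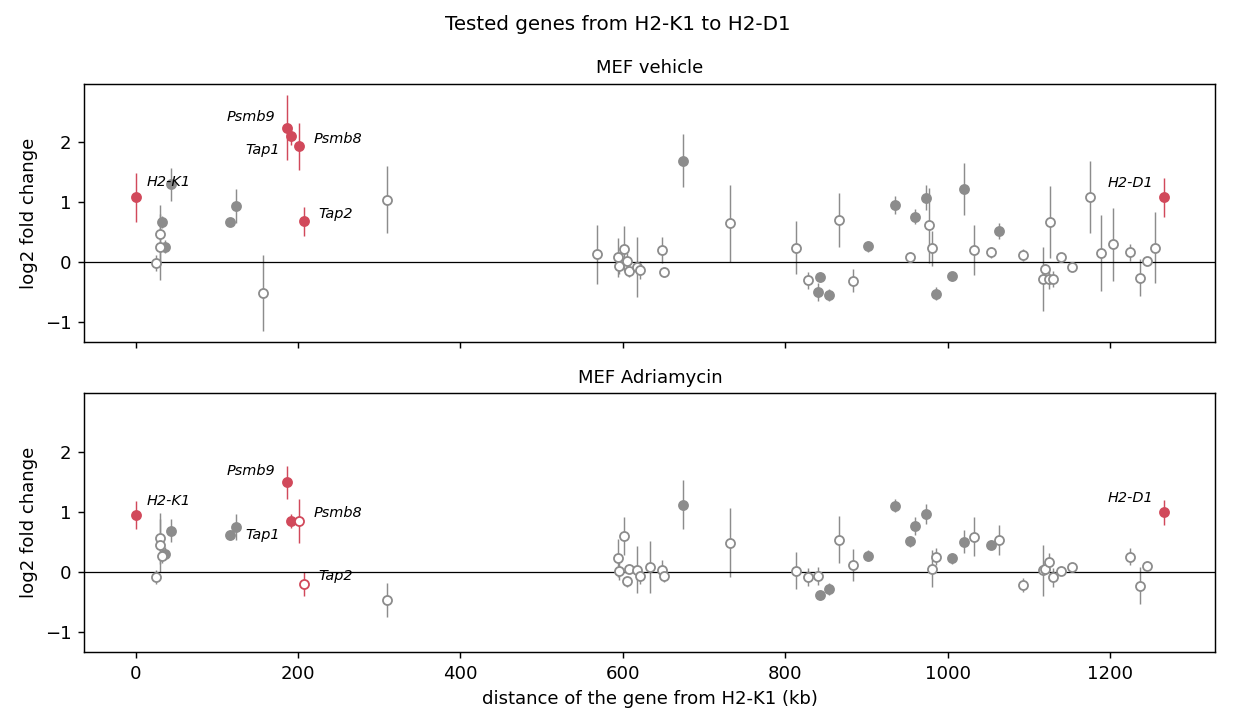
Log2 fold change (knockout over wild type) of tested genes by distance along chromosome 17 from H2-K1, in kb, with bars of 1 SE as deposited; red marks members, grey other genes, and filled points were called. Under vehicle Psmb9, Tap1 and Psmb8 stand between 1.93 and 2.24, above the grey points.

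Neighbouring and overlapping annotation limits some of these counts. Psmb9 and Tap1 share 212 exonic bases on opposite strands, the antisense gene Gm20496 covers 14.7% of the exonic bases of Psmb8, and Gm19412 covers 24.9% of those of Tapbp. The sources used here do not give whether reads were counted by strand.

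Outside the pathway, the genes nearest to the members' median pair of MEF values (1.37 and 0.85) were Grina, Grn, Tbc1d2, Ppm1h and C77080, by Euclidean distance over the 2 comparisons among 10090 genes whose mean count reached 100 in both tables. Their distances were 0.09 to 0.11. Grn, which encodes the secreted and lysosomal protein progranulin, was at 1.30 ± 0.08 (SE) and 0.91 ± 0.09 in the authors' deposited table.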

How the data were processed

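Poly(A) RNA from 24 samples in 8 groups of 3 was sequenced. The submitters' processing notes name the genome build GRCm38 and the tools DESeq2 1.4.1, featureCounts 1.4.5-p1 and TopHat2 2.0.13. Per the file headers, the signal in each table is the mean normalized count over 6 samples. The log2 fold change with its SE, the score (Wald statistic, checked to equal fold change over SE to within 1.4e-13), and the p-value with its adjusted p-value were also made by the authors and used as deposited. Shrinkage of the log2 values is not stated; no SE exceeds 0.71 in the MEF tables, even for genes with almost no reads. Shrunken fold changes would bring the group levels derived from them closer together. They would also enter the differences tested by z, by an amount that may not be equal in each comparison. The largest SE in MEFs was 0.71 under vehicle and 0.6 with Adriamycin. What part shrinkage had in those differences was not tested.

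From the tables, the level in control cells was computed as 2 × mean count / (1 + fold), taking equal group sizes. The number of podocyte genes tested was recovered from the ratio of adjusted p to p. Differences of fold changes were tested by z with Python 3.11.15 and scipy 1.17.1, and this was tested on simulated data. Coordinates and exon lengths come from GENCODE M21. Named genes were, beside Kat8 and all members, up to 2 higher and 2 lower per list and table with the smallest adjusted p, some fixed partners, and the 5 nearest genes; not all are printed. The members, lists and tests were chosen with earlier results of these data known. Alternatives were an adjusted p below 0.01, Bonferroni, a minimum fold or count, no filter on tested genes, and centring on the median.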

Additional observations from a re-analysis of the deposited data

Results flagged for a closer look

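The effect of MOF loss on a gene differed between drug conditions or cell types by the z test in 16 cases, given here as differences of log2 fold changes. Between Adriamycin and vehicle in MEFs these were Tap1 (-1.26), Tapbp (-0.827) and Nlrc5 (-1.10). Between Adriamycin and vehicle in podocytes they were Psmb8 (0.338) and Psmb9 (-0.753). Podocytes differed from MEFs under vehicle in Tapbp (-0.692), Psmb8 (-1.64) and Psmb9 (-1.89). With Adriamycin they differed in H2-K1 (-0.690), H2-D1 (-0.636), B2m (-0.610), Tap1 (-1.27), Tap2 (0.536), Psmb9 (-1.90), Psmb10 (0.649) and Nlrc5 (-2.76). In the comparisons that use a podocyte table, each gene entered only because it had been called there.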

How the results depend on the processing

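No paired analysis was possible because the tables hold no value per sample, and for the same reason no sample could be left out. Centring on the median, run per member in MEFs only, kept the direction and call of all 10 members in both comparisons; the other settings change thresholds and not fold changes, so direction in podocytes was not tested. In MEFs, 9 members changed under vehicle, with 7 at an adjusted p below 0.01 and 5 under Bonferroni, and 7 with Adriamycin, with 5 to 7 in the alternatives. Of the 5 podocyte members under vehicle, 3 were left at 0.01, 1 under Bonferroni and 1 at an absolute log2 fold change of at least 0.5. With Adriamycin, 9 became 3 at that minimum fold. Under Bonferroni the members that differed fell from 3 to 1 between drug conditions in MEFs (Tap1 left), from 2 to 1 in podocytes (Psmb9 left), and from 8 to 4 between cell types with Adriamycin. Between cell types under vehicle, 3 differed, with 0 under Bonferroni (z test; 3 at an unadjusted p below 0.05), 1 where both mean counts reach 100, and 5 after centring, where the podocyte centre is a median of called genes only. Motif counts fell from 7 to 4 windows for CCAAT and from 3 to 0 for the shortened interferon core on the gene's strand alone. Depth per library is unknown, and Psmb9 and Psmb8 have the fewest reads in MEFs.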
